A study of Mus musculus with 16 samples.

Results

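Collagen genes are described here in mouse hearts with and without CAP2, an actin-binding protein that helps filaments to turn over. Members were all gene rows whose symbol reads Col, a number, a and a number, so the choice used names and no measured value. This gave 43 of 38087 gene rows in experiment A and 44 of 54232 in experiment B, 44 genes in all, of which 43 had a row under that name in both. The remaining gene, Col26a1, is listed in experiment A under its older name Emid2 and is not counted there. Experiment A compared heart libraries of 86-week-old C57BL/6 females, 3 wild type and 3 CAP2 -/-. In experiment B the hearts came from C57BL/6 mice aged 13 weeks, all of them homozygous for the loxP allele. The 5 control libraries of experiment B were Cre- (3 female and 2 male), and the 4 Cre+ libraries carried Cre under Myh6 (3 female and 1 male). Myh6 drives expression in cardiomyocytes, so other heart cells are expected to keep the gene, and Cre itself was present in every Cre+ library and in no control. The effect of Cre and that of the loss of Cap2 cannot be told apart in experiment B. A further Cre+ sample was not analysed here.

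Collagens are trimeric extracellular proteins whose chains share a repeated glycine-containing triplet. The fibrillar types I and III form the tensile network of the heart and are made mainly by fibroblasts, with type V at the fibril core. Type IV builds the sheet of the basement membrane around cardiomyocytes and capillaries, type VI forms beaded filaments beside it, and the multiplexins XV and XVIII lie in basement membrane zones. FACIT collagens are fibril-associated types with interrupted triple helices, and type VIII forms short-chain networks in vessel walls. By this division the 44 genes were 11 fibrillar, 6 basement membrane, 7 beaded filament, 9 FACIT, 3 network, 2 multiplexin, 4 transmembrane, 1 anchoring fibril and 1 other gene.

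Col8a1 rose in both experiments with an adjusted p under 0.05, and its partner chain Col8a2 reached that in neither (edgeR in A, limma in B). The 250 bases before the transcription start of each, from RefSeq's GRCm38.p6 table, are shown because they hold the most GC boxes of the collagen promoters in that table. Capitals mark each match to GGGCGG on either strand. The Col8a1 stretch is chr16:57754738-57754987 on the minus strand, and the Col8a2 stretch is chr4:126286544-126286793 on the plus strand.
Col8a1: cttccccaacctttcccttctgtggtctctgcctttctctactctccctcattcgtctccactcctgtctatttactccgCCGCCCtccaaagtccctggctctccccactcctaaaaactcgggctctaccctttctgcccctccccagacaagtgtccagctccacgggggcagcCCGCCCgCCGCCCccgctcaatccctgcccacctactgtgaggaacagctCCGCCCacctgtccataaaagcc
Col8a2: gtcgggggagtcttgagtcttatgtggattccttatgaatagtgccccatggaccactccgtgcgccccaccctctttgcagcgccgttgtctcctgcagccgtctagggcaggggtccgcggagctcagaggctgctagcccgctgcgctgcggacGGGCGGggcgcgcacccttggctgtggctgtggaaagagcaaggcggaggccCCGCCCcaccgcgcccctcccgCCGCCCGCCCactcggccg
Each holds 4 matches, and the last pair in Col8a2 overlaps. In Col8a1 the match nearest the start ends 18 bases before it, and in Col8a2 10 bases before it. The table held 38 promoters of 35 collagen genes. It holds none for Col1a1, Col2a1, Col4a3, Col5a2, Col9a3, Col12a1, Col14a1, Col22a1 and Col26a1. A GC box was present in 22 of the 38 (57.9%), against 32.7% of all 32851 promoters of the same length. The TATA box TATAAA, searched on both strands, was in 5 (13.2%), against 12.4% of all. A CArG box, the site that SRF binds, was in 1 (2.63%), that of Col6a4, against 1.47% of all. Neither type VIII promoter held a CArG box or a TATAAA. A match describes these letters only.

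The gene rows of experiment A are estimated counts, summing to between 10750175 and 27440478 per library, and are given below as CPM, counts scaled to library size. Experiment B holds normalized reads in whole numbers whose normalization is not stated, so the depth behind them is unknown. The targeted gene followed its labels: Cap2 was 197 to 228 CPM in wild-type and 8.34 to 16.2 CPM in CAP2 -/- libraries, and in experiment B it fell by 2.22 on the log2 scale (limma adjusted p = 0.0161), with no Cre+ library above 87 normalized reads. Experiment B libraries were uneven, with 23.0% to 69.5% of normalized reads from mitochondrially encoded genes, the lowest share being that of Cre+ replicate 3. The controls also differed from each other among the collagen genes, with the 2 males at opposite ends. Male control replicate 4 was the lowest of all 9 libraries for 21 of the 30 tested collagen genes. Male control replicate 5 was the highest control for 15, and female control replicate 3 for 11. Cre+ replicate 3 was the highest of all 9 for 18. Each library has its own number in the labels, and those of experiment B differ in sex. The labels do not state outright that each library is a separate animal. The p-values therefore reflect the spread among these libraries, part of which may be technical.

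Among collagen genes compared per kilobase of merged exons, the type IV chains were the most abundant in control hearts of both experiments. In wild-type hearts Col4a2 stood at 68.5 and Col4a1 at 67.0 CPM per kb, followed by Col6a1 at 22.4, Col15a1 at 18.0, Col3a1 at 17.3, Col6a2 at 11.9 and Col1a1 at 10.9. Over the wild-type libraries the level per kb was 61.85 to 74.32 CPM for Col4a2 and 61.98 to 76.11 CPM for Col4a1, so these neighbours in the order overlapped. Basement membrane genes made up 54.8% of the summed collagen level per kb in wild-type hearts and fibrillar genes 18.1%. In experiment B controls Col4a1 came first at 257 and Col4a2 next at 220 normalized reads per kb, then Col6a1 at 124, Col3a1 at 111, Col1a1 at 80.0, Col15a1 at 78.8 and Col1a2 at 69.0. In Cre+ hearts Col4a1 and Col4a2 stood at 556 and 499, and Col3a1 and Col1a1 at 464 and 457 normalized reads per kb, means that replicate 3 pulled up. In Cre+ replicates 1 to 4 Col1a1 was at 170, 355, 1107 and 195 per kb, beside Col4a1 at 317, 706, 857 and 345. Without replicate 3, left out after the values were seen, the Cre+ means per kb were 240.1 for Col1a1, 264 for Col3a1 and 456 for Col4a1. The order depends on the length used, since merged exons of Col3a1 span 9816 bases against 5564 for its longest coding transcript. Per kb of the longest coding transcript, Col3a1 ranked 1 and Col1a2 ranked 2 in the mean of all 4 Cre+ hearts, and 2 and 3 without replicate 3.

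In old hearts without CAP2, 2 collagen genes rose and the major fibrillar, basement membrane and type VI chains differed by less than the spread between libraries. Col8a1 rose 2.48-fold and Col12a1 4.10-fold, and no collagen gene was called lower in the main test, though Col6a6 came close to the threshold and is described below. A gene is termed called here when its adjusted p in the fit over all genes is under 0.05 (edgeR quasi-likelihood test, Benjamini-Hochberg). Of the 43 collagen genes 30 had enough reads to be tested, and 2 of the 30 were called, beside 1.35% of all 16297 genes tested. Both were higher, beside 0.841% of all genes called higher and 0.509% called lower. Col12a1 and Col8a2 passed the filter on low counts only through the CAP2 -/- libraries, and 1 of the other 28 was called. The 13 untested genes, among them the cartilage collagens Col2a1, Col9a1 and Col9a2, were below 1 CPM in every library.

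Col8a1 (ENSMUSG00000068196, chr16:57624258-57754737, minus strand, GRCm38) encodes the α1 chain of type VIII collagen, a network former known from vessel walls and Descemet's membrane. It stood at 20.0, 16.7 and 15.6 CPM in wild-type replicates 1 to 3 and at 36.9, 51.7 and 41.5 CPM in CAP2 -/- replicates 1 to 3. Every CAP2 -/- library was above every wild-type library, and the log2 fold change was 1.31 (SE 0.16, edgeR adjusted p = 0.000219). The gene passed the threshold under each of the 11 settings run, with log2 fold changes of 1.17 to 1.43. Its reads were also split by exon in the deposited table. The 3 exon blocks with at least 10 wild-type counts were all higher in CAP2 -/- libraries, with groups apart in each and log2 ratios of 1.23, 1.66 and 1.29 in transcript order. The difference ran along all 3 measured blocks. Col8a2, the other type VIII chain, was far lower, at 1.41, 0.553 and 0.527 CPM in wild type and 1.18, 1.57 and 2.61 CPM in CAP2 -/-. Its log2 difference was 1.04 (SE 0.50, edgeR adjusted p = 0.493), and the groups overlapped.

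Among the FACIT genes, Col12a1 (ENSMUSG00000032332, chr9:79598991-79718831, minus strand), whose product decorates fibrils in loaded tissues, stood at 1.51, 0.645 and 1.11 CPM in wild type. It reached 2.90, 4.51 and 6.61 CPM in CAP2 -/- libraries, all above the wild-type range. The log2 fold change was 2.04 (SE 0.40, edgeR adjusted p = 0.0136). This call rested on few reads. None of its 66 exon blocks reached 10 wild-type counts, and the last block at the 3′ end held 8 wild-type and 62 CAP2 -/- counts. Without CAP2 -/- replicate 3 the log2 difference was 1.70 and the adjusted p 0.131, and without wild-type replicate 3 they were 2.02 and 0.0647. Over the 11 settings the log2 difference ran from 1.70 to 2.37, and the call held in 9. Col22a1, a FACIT known from tissue junctions of muscle, stood at 1.87, 1.66 and 1.29 CPM in wild type and 2.90, 4.86 and 4.77 CPM in CAP2 -/- libraries. The groups did not overlap, but the log2 difference of 1.37 (SE 0.34) missed the threshold with an edgeR adjusted p of 0.0637. Col14a1, a FACIT that regulates fibril growth, was at 32.0, 28.9 and 14.5 CPM in wild type and 39.8, 46.0 and 38.6 CPM in CAP2 -/-. The groups were again apart, with a log2 difference of 0.72 (SE 0.26, edgeR adjusted p = 0.357).

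The fibrillar genes gave small differences in experiment A. Col1a1, the α1 chain of type I, stood at 99.3, 57.1 and 57.6 CPM in wild type and 54.3, 72.7 and 86.4 CPM in CAP2 -/-. Wild-type replicate 1 was its highest library and the groups overlapped, with a log2 difference of -0.01 (SE 0.26, edgeR adjusted p = 0.996). Without wild-type replicate 1 that difference was 0.31, still not called. Col3a1, the type III chain, was at 229, 134 and 146 CPM in wild type and 159, 257 and 223 CPM in CAP2 -/-, a log2 difference of 0.33 (SE 0.24, edgeR adjusted p = 0.737). Col1a2, the α2 chain of type I, stood at 137, 92.5 and 69.0 CPM in wild type and 99.7, 120 and 126 CPM in CAP2 -/- (log2 difference 0.21, SE 0.23). The type V chain Col5a1 stood at 45.8, 28.4 and 33.3 against 33.3, 38.0 and 39.9 CPM (log2 difference 0.04, SE 0.16). The groups overlapped for each of these genes. Col5a2, also of type V, stood at 30.3, 23.4 and 19.4 CPM in wild type and 30.6, 38.6 and 35.0 CPM in CAP2 -/-, with a log2 difference of 0.51 (SE 0.17, edgeR adjusted p = 0.206). Its lowest CAP2 -/- library lay just above its highest wild-type library. Of the 8 tested fibrillar genes 4 had a positive log2 difference and none was called.

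The basement membrane, multiplexin and beaded filament genes were not called in experiment A. Col4a1 stood at 568, 469 and 463 CPM in wild type and 509, 517 and 583 CPM in CAP2 -/-, with a log2 difference of 0.10 (SE 0.12). Col4a2 was at 492, 459 and 409 against 474, 477 and 569 CPM, with a log2 difference of 0.16 (SE 0.12, edgeR adjusted p = 0.716). Both groups overlapped for each chain. The multiplexin Col15a1 stood at 140, 83.8 and 120 CPM in wild type and 71.7, 84.3 and 138 CPM in CAP2 -/- (log2 difference -0.22, SE 0.30). Col18a1, the source of endostatin, stood at 20.4, 17.4 and 13.6 against 15.9, 15.9 and 21.6 CPM (log2 difference 0.05, SE 0.19). Col6a1, a type VI chain, stood at 111, 85.9 and 97.0 against 75.9, 97.0 and 117 CPM (log2 difference -0.02, SE 0.15). All 3 had overlapping groups. Col6a6, a type VI α3-like chain, had the lowest log2 difference of the tested collagen genes and was chosen for mention after its values were seen. It stood at 11.9, 6.82 and 7.85 CPM in wild type and 5.07, 3.15 and 4.32 CPM in CAP2 -/-, so that the groups did not overlap (log2 difference -1.10, SE 0.27, edgeR adjusted p = 0.0581). In all, groups were apart with CAP2 -/- higher for 5 of the 30 tested genes, beside 7.6% of all genes, and apart with CAP2 -/- lower for 1, beside 8% of all genes. At an unadjusted p under 0.05, 5 were higher, beside 5.11% of all genes, and 2 were lower, beside 5.32%. A log2 difference above 0 was seen for 16 of the 30, beside 50.9% of all genes. The median log2 difference of the 30 was 0.05, against 0.01 for all genes.

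In the authors' deposited table for experiment A, 4 of the 33 collagen genes with an adjusted p were under 0.05, beside 2.61% of all 17250 genes. These were Col8a1 and Col12a1, and also Col22a1 (log2 fold change 1.36, adjusted p = 0.00903) and Col6a6 (log2 fold change -1.10, adjusted p = 0.00718) in the authors' deposited table. The DESeq2 test run here on the same counts also called these 4, beside 2.47% of all genes.

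**Figure D1:**
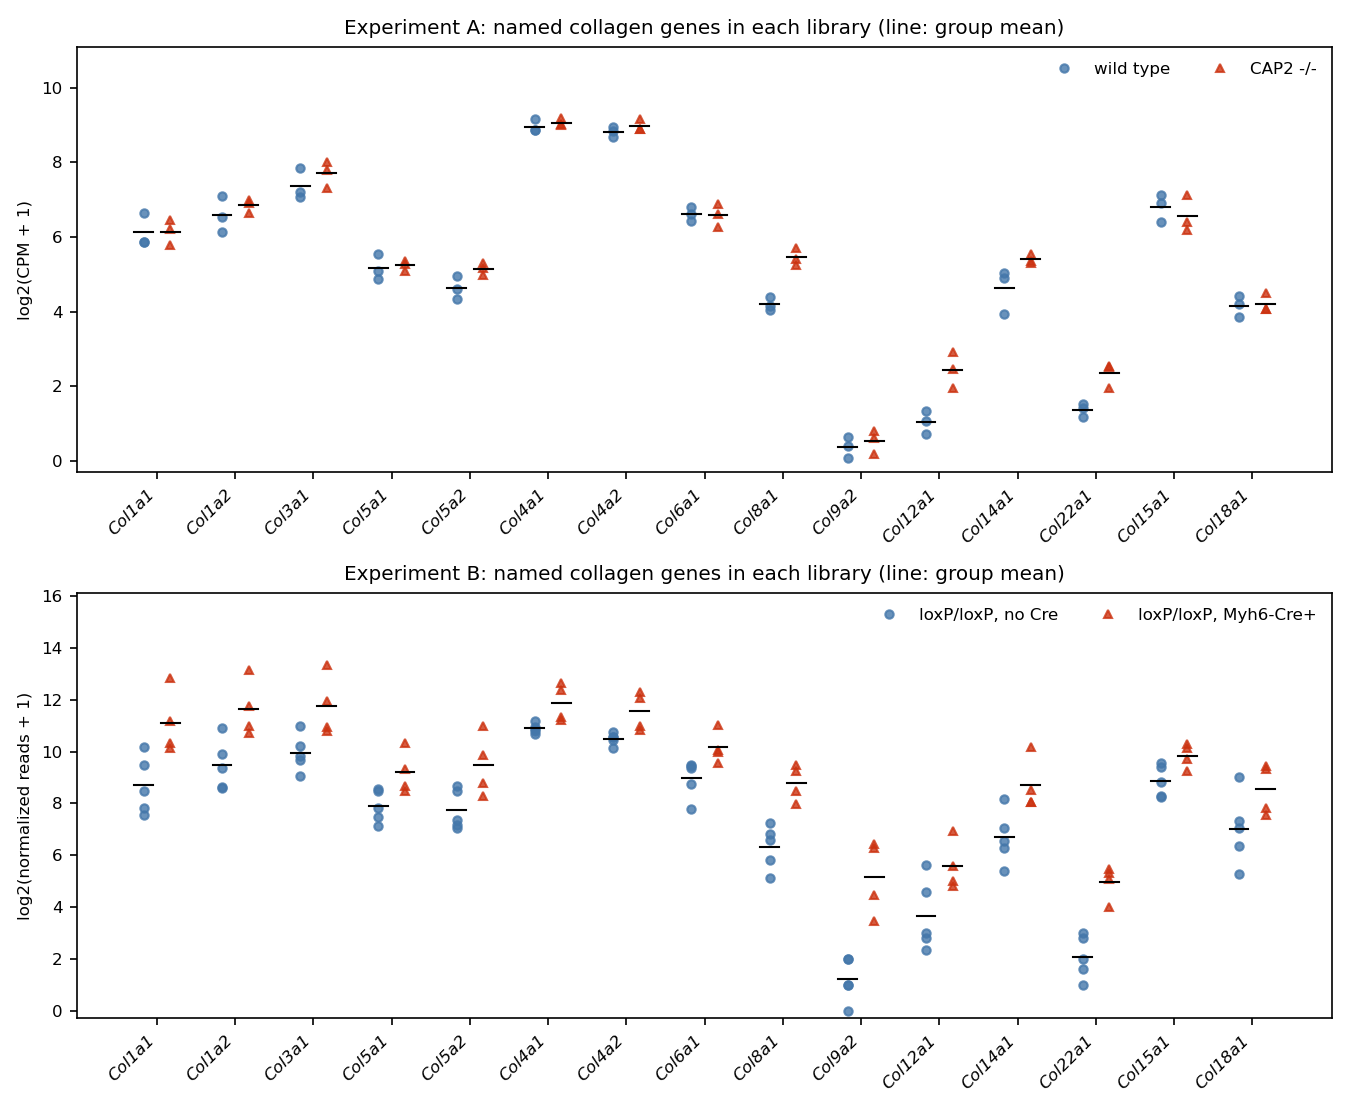
Level of the 15 collagen genes described by library, with log2(CPM + 1) in experiment A above and log2(normalized reads + 1) in experiment B below; each point is 1 library (circles controls, triangles CAP2 -/- or Cre+) and black lines are group means. Col8a1 is apart in both panels, while Col1a1 overlaps in experiment A and lies between 1115 and 7264 normalized reads in Cre+ against 185 to 1156 in controls in experiment B.

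In young Cre+ hearts, 3 collagen genes rose: Col8a1 5.64-fold, Col9a2 13.9-fold and Col22a1 7.72-fold on the log2(value + 1) scale, which understates changes of low genes. No collagen gene was called lower. Most others were higher in Cre+ hearts without passing the threshold. Of the 44 genes 30 had a mean of at least 10 normalized reads and were tested, and 3 were called (limma with a sex term, adjusted p under 0.05), beside 1.88% of all 12141 genes, of which 0.947% were called higher and 0.931% lower. Col9a2 and Col22a1 passed the filter only through the Cre+ libraries, and 1 of the other 28 was called. A log2 difference above 0 was seen for 26 of the 30, beside 41.5% of all genes. At an unadjusted p under 0.05, 18 were higher, beside 7.89% of all genes, and 1 was lower, beside 14.2%. The median log2 difference of the 30 was 1.11, against -0.12 for all genes, and without Cre+ replicate 3 it was 0.85. Since bulk tissue was measured, more cells of a type and more RNA per cell cannot be told apart, here and in the results that follow.

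Col8a1 stood at 34, 55, 113, 96 and 150 normalized reads in control replicates 1 to 5 and at 352, 601, 711 and 251 in Cre+ replicates 1 to 4. All Cre+ libraries lay above all controls, with a log2 fold change of 2.50 (SE 0.45, limma adjusted p = 0.0247). It stayed at 2.14 to 3.13 over the 19 settings run and passed the threshold in 14. The call was lost without control replicate 1 (adjusted p = 0.0696), control replicate 2 (0.0769), Cre+ replicate 2 (0.0942) or Cre+ replicate 3 (0.0875), and with the mitochondrial share as a covariate (0.133). The other type VIII chain, Col8a2, was at 3, 5, 31, 3 and 25 in controls and 36, 61, 86 and 19 in Cre+ libraries, which overlapped (log2 difference 2.15, SE 0.73, limma adjusted p = 0.134).

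Col9a2 (ENSMUSG00000028626, chr4:121039385-121055322, plus strand) encodes a chain of type IX collagen, a FACIT best known from cartilage. It was nearly absent from controls, at 1, 1, 3, 0 and 3 normalized reads, and stood at 21, 77, 86 and 10 in Cre+ libraries. The log2 fold change was 3.80 (SE 0.69, limma adjusted p = 0.0252), and with a pseudocount of 10 in place of 1 it was 1.95, still called. The other type IX chains did not follow it: Col9a1 was at 0 to 5 and Col9a3 at 0 to 10 normalized reads in every library. Of 6 chondrocyte markers, Matn3 was at 0 in all 9 libraries, Matn1 at 0 in 8 and Acan at 0 to 17 in controls and 1 to 17 in Cre+ libraries. Hapln1 was at 0 to 24 and Cnmd at 1 to 17 in controls, and at 0 to 12 and 0 to 8 in Cre+ libraries. Sox9, the 1 marker high enough to be tested, was at 2 to 47 in controls and 17 to 37 in Cre+ libraries (log2 difference 0.93, limma adjusted p = 0.457). The summed level of the 6 was 3 to 79 in controls and 28 to 53 in Cre+ libraries, and their part in the result was not tested. In experiment A, Col9a2 stood at 0.324, 0.553 and 0.0585 CPM in wild type and 0.544, 0.143 and 0.763 CPM in CAP2 -/-, and was not tested.

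Col22a1 (ENSMUSG00000079022, chr15:71795795-72034227, minus strand) stood at 1, 2, 7, 6 and 3 in controls and 15, 43, 39 and 33 in Cre+ libraries, with no overlap (log2 fold change 2.95, SE 0.56, limma adjusted p = 0.0280). Col9a2 and Col22a1 each passed in 12 of the 19 settings. Both lost the call without control replicate 1, control replicate 2, Cre+ replicate 2, Cre+ replicate 3 or Cre+ replicate 4 and with the mitochondrial covariate, Col9a2 also without control replicate 3 (adjusted p = 0.0515) and Col22a1 also among females only (0.0630). The highest adjusted p over these settings was 0.136 for Col9a2 and 0.132 for Col22a1. Of the other FACIT genes, Col14a1 was at 77, 93, 130, 41 and 286 in controls and 262, 362, 1149 and 266 in Cre+ libraries. Control replicate 5 overlapped the Cre+ range (log2 difference 1.97, SE 0.57, limma adjusted p = 0.0946). Col12a1, called in experiment A, stood at 7, 6, 23, 4 and 48 in controls and 27, 47, 121 and 31 in Cre+ libraries. Here it was not called (log2 difference 1.92, SE 0.71, limma adjusted p = 0.158).

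The type I and III chains were higher in Cre+ hearts by a wide but uncertain margin. Col1a1 stood at 224, 353, 706, 185 and 1156 normalized reads in controls and 1115, 2333, 7264 and 1280 in Cre+ libraries. Control replicate 5 lay just above the lowest Cre+ library, and the log2 difference was 2.39 (SE 0.64, limma adjusted p = 0.0812). Col1a2 stood at 389, 656, 954, 394 and 1897 in controls and 1686, 3474, 9109 and 2022 in Cre+ libraries (log2 difference 2.17, SE 0.58, limma adjusted p = 0.0772). Col3a1 stood at 534, 806, 1197, 900 and 2033 against 1993, 4002, 10442 and 1780 (log2 difference 1.81, SE 0.54, limma adjusted p = 0.101). For all 3 genes control replicate 5 was the one control inside the Cre+ range, and Cre+ replicate 3 was the highest library. Without control replicate 5, 14 collagen genes were called, beside 4.32% of all genes: Col8a1, Col9a2 and Col22a1 as before, and with them Col1a1, Col1a2, Col3a1 and 8 others. No collagen gene was called without control replicate 1 or 2 or Cre+ replicate 2 or 3, beside 0.32% to 0.397% of all genes. Over the 19 settings Col1a1 and Col1a2 each passed in 3 and Col3a1 in 2. Their highest limma adjusted p values were 0.283, 0.279 and 0.339. Of the type V chains, Col5a2 stood at 133, 162, 409, 141 and 358 in controls and 440, 935, 2029 and 310 in Cre+ libraries (log2 difference 1.65, SE 0.53, limma adjusted p = 0.122). Col5a1 stood at 177, 227, 358, 139 and 373 against 407, 637, 1299 and 358 (log2 difference 1.25, SE 0.40, limma adjusted p = 0.123). In both the male Cre+ replicate 4 lay within the control range. Col5a3 was a fibrillar gene without that direction, at -0.31 (SE 0.40), as was Col11a2 at -0.97 (SE 0.74).

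No type IV or type VI gene was called in experiment B. The log2 differences of the 6 type IV genes ran from 0.25 to 1.13, and those of the type VI genes tested went in both directions. Col4a1 stood at 1756, 1861, 1982, 1637 and 2341 normalized reads in controls and 2364, 5266, 6396 and 2575 in Cre+ libraries. Col4a2 stood at 1729, 1497, 1407, 1129 and 1522 against 2049, 4340, 5008 and 1819. The groups did not overlap for either chain, and the log2 differences were 0.96 (SE 0.32, limma adjusted p = 0.134) and 0.98 (SE 0.31, limma adjusted p = 0.115). These 2 genes lie head to head on chromosome 8, with RefSeq starts at 11312826 (minus strand) and 11312805 (plus strand), so that their first exons overlap by 22 bases. The other head-to-head type IV pairs, Col4a4 with Col4a3 (71 bases apart) and Col4a6 with Col4a5 (1308 bases apart), had log2 differences of 0.56 and 0.31, and of 1.13 and 0.25, in experiment B. Col6a1 was at 426, 716, 666, 219 and 690 in controls and 1010, 1066, 2106 and 747 in Cre+ libraries, groups apart (log2 difference 1.09, SE 0.36, limma adjusted p = 0.128). Col6a2 differed by 1.41 (SE 0.39, limma adjusted p = 0.0856), also with groups apart. Col6a3, whose product completes the type VI trimer, differed by 0.33 (SE 0.37). The multiplexin Col15a1 stood at 310, 679, 755, 304 and 454 in controls and 841, 1243, 1137 and 601 in Cre+ libraries (log2 difference 0.88, SE 0.29, limma adjusted p = 0.130). Col18a1 stood at 80, 160, 132, 38 and 513 against 187, 222, 699 and 643 (log2 difference 1.61, SE 0.66, limma adjusted p = 0.188). The groups overlapped for both, Col18a1 through control replicate 5. Col6a6 had the lowest log2 difference here too, at -1.68 (SE 0.67, limma adjusted p = 0.180). In all, 8 of the 30 tested genes had groups apart with Cre+ higher, beside 3.87% of all genes, and none had them apart with Cre+ lower, beside 4.79%. The 8 were Col4a1, Col4a2, Col6a1, Col6a2, Col8a1, Col9a2, Col16a1 and Col22a1.

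**Figure D2:**
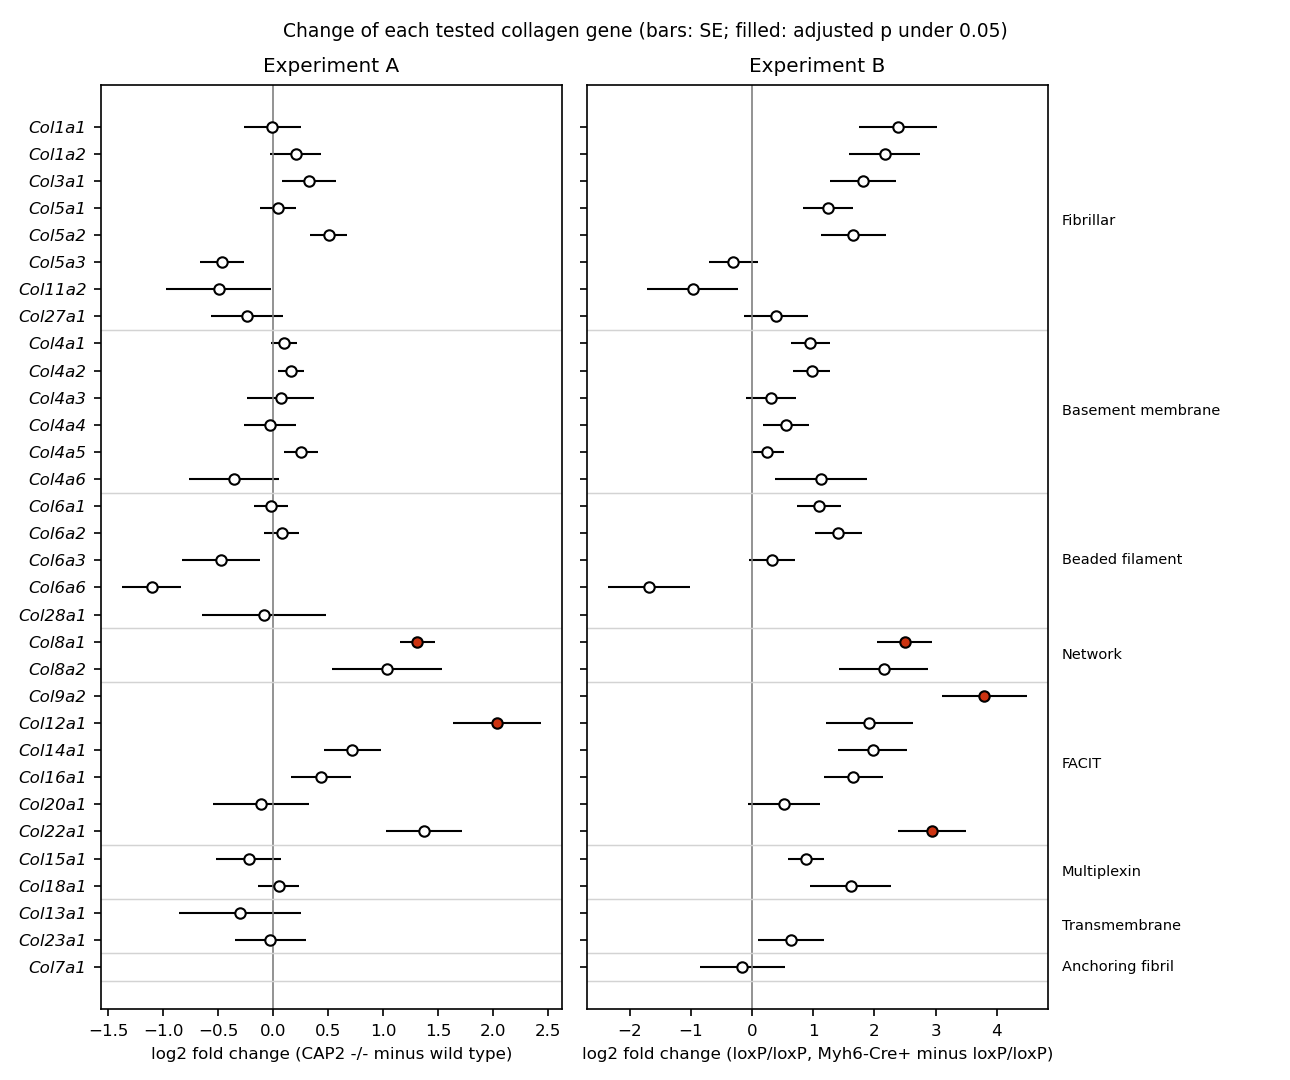
Log2 fold change of each tested collagen gene, CAP2 -/- minus wild type (experiment A, left) and Cre+ minus control (experiment B, right), grouped by class; bars are standard errors and filled points have an adjusted p under 0.05. The filled points are Col8a1 and Col12a1 on the left and Col8a1, Col9a2 and Col22a1 on the right; the 2 panels have different scales.

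**Figure D3:**
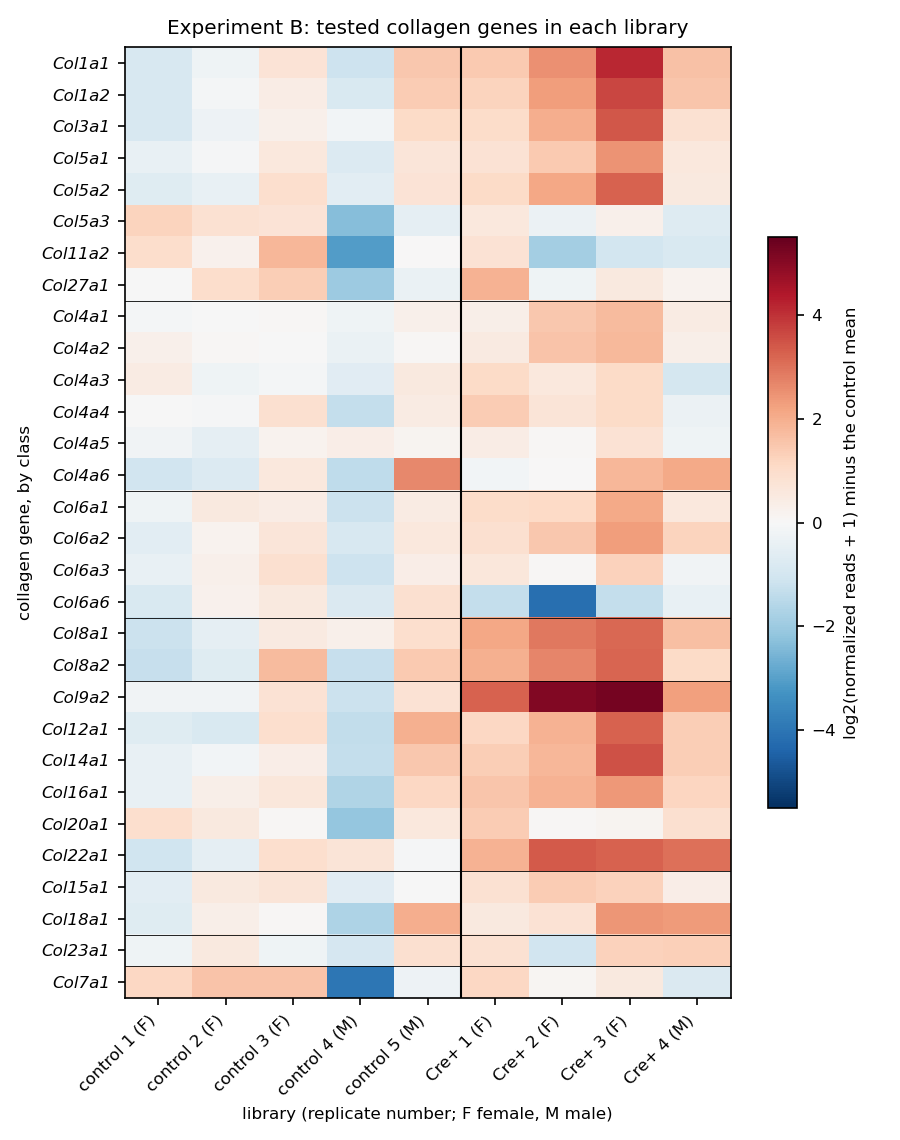
Experiment B, log2(normalized reads + 1) of the 30 tested collagen genes in each of the 9 libraries, minus the mean of the 5 controls; red is above and blue below that mean. Cre+ replicate 3 is the highest library for 18 genes, and control replicate 4, a male, the lowest for 21.

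The 14 untested collagen genes of experiment B had means under 10 normalized reads. Col10a1, Col19a1 and Col6a4 were listed at 0 in all 9 libraries. Col26a1 stood at 0 to 7 in controls and 10, 13, 30 and 4 in Cre+ libraries. Col2a1, the main cartilage collagen, was at 0 in all 5 controls and at 2, 0, 8 and 2 in Cre+ libraries.

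In experiment A the network and FACIT classes, picked here because they hold the called genes, took larger shares of the summed collagen level per kb in CAP2 -/- hearts. The network level was mostly Col8a1 itself, at 2.22 CPM per kb in wild type and 5.53 in CAP2 -/-. Most of the FACIT level was Col14a1, not called, at 3.58 and 5.91 CPM per kb. The called FACIT gene Col12a1 stood at only 0.0716 and 0.307. Network genes made up 0.905% to 0.961% in wild-type and 1.85% to 2.51% in CAP2 -/- libraries, and FACIT genes 1.48% to 2.37% and 2.61% to 3.37%, both without overlap between the groups and not tested. Fibrillar genes made up 18.1% in wild-type and 18.8% in CAP2 -/- hearts. The fibrillar share was 24.1% to 36.6% in experiment B controls and 33.4%, 35.6%, 51.4% and 33.4% in Cre+ replicates 1 to 4, so the groups overlapped and Cre+ replicate 3 stood apart. Basement membrane genes made up 34.0% to 54.7% in controls and 26.3% to 40.2% in Cre+ libraries. The ratio of Col1a1 to Col4a1 per kb was 0.129 to 0.562 in controls and 0.504 to 1.29 in Cre+ libraries. All collagen genes together made up 0.154% to 0.359% of the normalized reads of nuclear genes in controls and 0.392%, 0.670%, 1.29% and 0.373% in Cre+ replicates 1 to 4. In experiment A the summed collagen level was 1710 to 2267 CPM in wild-type and 1838 to 2335 CPM in CAP2 -/- libraries. For chains within a molecule, the ratio of Col4a1 to Col4a2 was 0.901 to 1.36 per kb in controls and 1.02 to 1.26 in Cre+ libraries. Col1a1 to Col1a2 was 0.889 to 1.40 in controls and 1.20 to 1.51 in Cre+ libraries. Col6a1 to Col6a2 was 1.98 to 3.13 in controls and 1.57 to 2.70 in Cre+ libraries. The groups overlapped for each of these ratios.

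**Figure D4:**
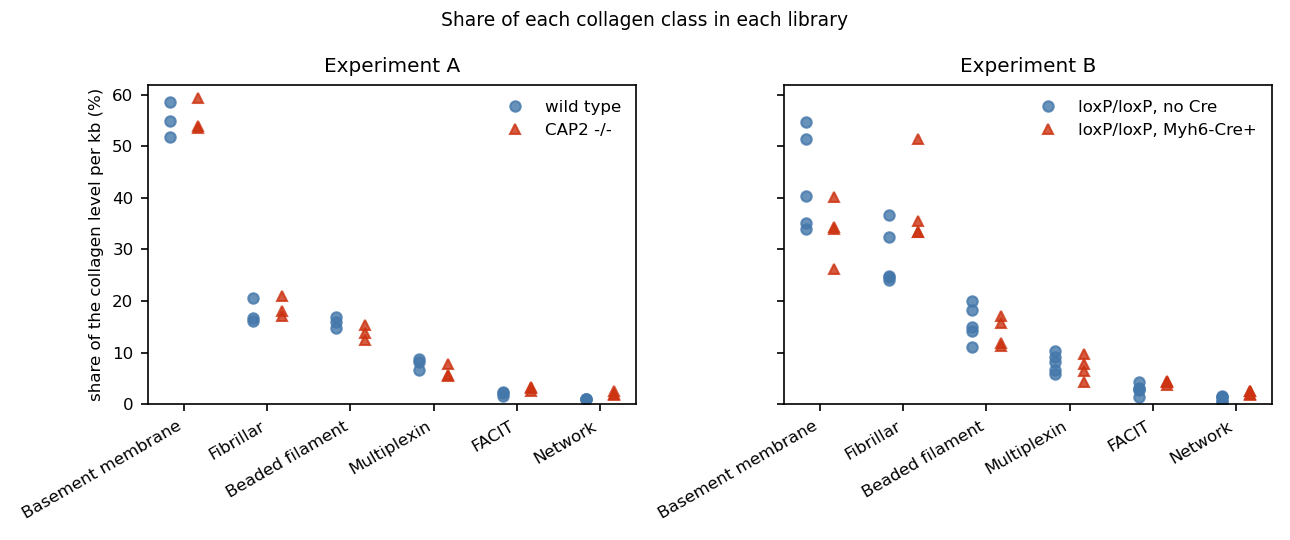
Share of the summed collagen level per kb of merged exons (%) taken by 6 classes, 1 point per library, in experiment A (left) and B (right). In experiment B the fibrillar share of Cre+ replicate 3 is 51.4% and those of the other Cre+ libraries 33.4% to 35.6%, beside 24.1% to 36.6% in controls.

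Of the 28 collagen genes tested in both experiments, 16 had a log2 difference above 0 in both, 57.1% beside 24.2% of the 11806 genes tested in both. A further 9 were below 0 in experiment A and above 0 in experiment B, 3 were below 0 in both and none was above 0 only in experiment A. Within experiment A alone 53.3% of the 30 tested collagen genes were above 0, beside 50.9% of all genes. Within experiment B it was 86.7%, beside 41.5%. The excess over all genes therefore lay mostly in experiment B, and whether the 2 experiments agree was not tested. Col8a1 was the 1 collagen gene called in both, among 61 genes in all. The experiments share no library but differ in age, sex, kit, allele and unit, and the difference between them was not tested. Col1a1 is the clearest case side by side, with a log2 difference of -0.01 (SE 0.26) in old CAP2 -/- hearts and 2.39 (SE 0.64) in young Cre+ hearts.

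Markers of fibroblasts, the main source of fibrillar collagen, were measured beside these genes. In experiment A the 8 fibroblast markers summed to 2456 to 2681 CPM in wild-type and 2718 to 3153 CPM in CAP2 -/- libraries, and 1 of them, Mfap5, was called (log2 fold change 1.11). In experiment B they summed to 7369 to 27282 in controls and 20772 to 25898 in Cre+ libraries, and again Mfap5 alone was called (2.51). This sum separated the groups in experiment A only, and there narrowly. Gsn, its largest part, averaged 1792 CPM in wild type and 1826 CPM in CAP2 -/-, and its groups overlapped. Dcn stood at 374, 532 and 495 CPM in wild type and 775, 564 and 624 CPM in CAP2 -/- (log2 difference 0.49, edgeR adjusted p = 0.156). Mfap5 and Pi16 also had groups apart, and the other markers of this list overlapped. The summed activated fibroblast markers separated the groups in both experiments. In experiment A the activated sum was at most 260 CPM in wild type and 2171 to 3518 CPM in CAP2 -/- libraries. In CAP2 -/- it was mostly Acta2 (mean 2735 CPM, against 116 in wild type), which was the 1 called of 5 tested. Postn (log2 difference 2.09) and Cilp (2.01) had groups apart but were not called. Meox1 overlapped between the groups (1.01, edgeR adjusted p = 0.270), and Fap had the other sign (-0.28, edgeR adjusted p = 0.866). In experiment B the sum was 504 to 4776 in controls and 14629 to 18471 in Cre+ libraries, again mostly Acta2 (14537 of 18471 in Cre+ replicate 1). Acta2, Postn and Cilp were called of 6 tested, and Fap had the other sign, at 9 to 82 in controls and 11 to 25 in Cre+ libraries (log2 difference -1.10, limma adjusted p = 0.216). In experiment B all 6 macrophage markers had a log2 difference above 0 (median 0.65). So had 5 of 7 endothelial markers (median 0.34) and 3 of 4 Schwann markers tested (median 0.20). At an unadjusted p under 0.05, 2 of the macrophage and 1 of the endothelial markers were higher, beside 7.89% of all genes. The medians in experiment A were 0.17, 0.03 and -0.11. Endothelial, smooth muscle and pericyte, macrophage and Schwann markers gave no call among those tested, with 1 exception. Abcc9, listed with the smooth muscle and pericyte markers, was called lower in experiment B (log2 fold change -1.63). Its highest control was replicate 4, at 2685 normalized reads, as for Ryr2 (11130) and Pln (17025) of the cardiomyocyte list. Kcnj8, Rgs5 and Pdgfrb, listed with Abcc9, had log2 differences of -0.60, -0.38 and -0.31 in experiment B. Those of Cnn1, Tagln, Cspg4 and Myh11 on the same list were 2.89, 1.76, 0.50 and 0.36. None of these genes was called. Of the 8 smooth muscle and pericyte markers 4 were higher in experiment B, and the median log2 difference was 0.02. The 5 mesothelial markers were all higher in experiment B, with a median log2 difference of 2.04, and 4 of them had an unadjusted p under 0.05, though none was called. They summed to 37 to 814 in controls, the highest being control replicate 5, and to 273 to 544 in Cre+ libraries. The part of these cell types in the collagen results was not tested. Among cardiomyocyte markers, which were abundant in every library, Pln was called lower in experiment B (log2 fold change -1.53) and none in experiment A.

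Genes that process or bind collagen were described from a list of 29 processing genes and 10 receptors. In experiment A none of the 35 tested was called lower, beside 0.509% of all genes, and 1 was called higher, beside 0.841%. It was P3h2, a prolyl 3-hydroxylase acting on type IV collagen, at 4.90, 3.22 and 3.92 CPM in wild type and 7.34, 9.58 and 13.9 CPM in CAP2 -/- (log2 fold change 1.34, SE 0.27, edgeR adjusted p = 0.0154). That call was lost without CAP2 -/- replicate 3 or wild-type replicate 3. In experiment B 3 of 34 were called higher, beside 0.947% of all genes, and none was called lower, beside 0.931%. Pcolce, which enhances removal of the procollagen C-propeptide, stood at 308, 486, 620, 150 and 525 in controls, all below the Cre+ libraries at 1069, 1391, 1831 and 1002 (log2 fold change 1.69, SE 0.36, limma adjusted p = 0.0432). Adamts2, the N-propeptidase of fibrillar procollagens, was at 79, 105, 121, 74 and 309 against 351, 753, 1391 and 337, also without overlap (log2 fold change 2.31, SE 0.51, limma adjusted p = 0.0452). Ddr1, a collagen-binding receptor tyrosine kinase, rose by 1.23 (SE 0.26, limma adjusted p = 0.0432), at 71, 62, 84, 108 and 111 in controls and 138, 202, 284 and 180 in Cre+ libraries. Over the tested list the median log2 difference was 0.12 in experiment A, and 0.51 was its value in experiment B. All 3 calls were lost without Cre+ replicate 2, 3 or 4, without control replicate 1, 2 or 3 and with the mitochondrial covariate. Adamts2 was also lost with no filter on low values and without control replicate 4, and Ddr1 with no sex term. The chaperone Serpinh1, which binds procollagen in the endoplasmic reticulum, differed by -0.03 (SE 0.13) in experiment A and by 0.88 (SE 0.27, limma adjusted p = 0.112) in experiment B.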

How the data were processed

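Heart RNA was sequenced from Ion Total RNA-Seq libraries (experiment A, 6 analysed) and stranded TruSeq libraries (experiment B, 9 analysed), per the labels' protocols. The submitters' processing notes name mm10, STAR 2.6.0c and DESeq, with no role; how reads were counted is not given in the sources used here. The authors deposited estimated counts of genes and exons for experiment A. Their deposited comparison holds a mean normalized signal, log2 fold changes and p-values, per the file headers. Experiment B values were deposited as normalized reads in whole numbers, treated as a score since the method is not stated. Genes were placed with GENCODE M21 on the same build. Rounded counts entered edgeR 4.0.16 (R 4.3.3) with TMM, filterByExpr and the robust quasi-likelihood test, with DESeq2 1.42.0 as an alternative. CPM values use TMM-adjusted library sizes. Experiment B was tested with limma 3.58.1 (robust trend) on log2(value + 1), mean of at least 10, with sex as a term. P-values were adjusted by Benjamini-Hochberg over all genes tested. The scripts were tested on simulated data. The naming rule uses no measured value, but the members, classes and lists were chosen with earlier results of these data known. Named by rule were every collagen gene called in either experiment, 13 fixed genes of the fibrillar, basement membrane, beaded filament, network, FACIT and multiplexin classes, and every called gene of the processing and receptor list; others named were chosen after their values were seen. Alternatives changed the scaling, the filter, the pseudocount, the covariates, the replicate block and the libraries left out.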

Additional observations from a re-analysis of the deposited data

How the results depend on the processing

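In experiment A the count of 2 called collagen genes became 4 with the DESeq2 test and 5 with no filter on low counts, was 2 with other size factors or the replicate block, and ran from 1 to 4 with 1 library left out. In experiment B the count of 3 stayed at 3 with a pseudocount of 10, no filter, TMM scaling, quantile normalization, scaling to the nuclear total or no sex term, was 4 among females, became 0 with a mitochondrial covariate, and ran from 0 to 14 with 1 library left out; it was 0 without control replicate 1, control replicate 2, Cre+ replicate 2 or Cre+ replicate 3, 1 without Cre+ replicate 4, 7 without Cre+ replicate 1 and 14 without control replicate 5. Of the processing and receptor genes, the 1 call in experiment A became 2 with the DESeq2 test and 2 with no filter, with 0 to 3 when leaving out 1 library. The 3 calls in experiment B became 5 among females and 0 with the mitochondrial covariate, with 0 to 9 when leaving out 1 library: 0 without Cre+ replicate 2, 3 or 4 or control replicate 1, 2 or 3, 7 without Cre+ replicate 1 and 9 without control replicate 5. Replicate numbers are shared by the groups, and in experiment B same-numbered libraries are of the same sex. Deviations of same-numbered libraries from their group means had correlations of -0.17 to -0.03 in experiment A and -0.11 to 0.24 in experiment B. Differently numbered libraries of experiment B ran from -0.47 to 0.35. Deviations within such small groups depend on each other, so these correlations cannot settle whether the numbers pair libraries. With the replicate block experiment B gave 14 collagen and 6 processing calls, a fit that leaves out control replicate 5, which has no partner. In experiment A the log2 difference of Col1a1 turned to 0.026 with the replicate block. Leaving out 1 library turned the sign of uncalled genes there: the values ran from -0.118 to 0.205 for Col18a1, -0.173 to 0.313 for Col1a1, -0.0015 to 0.515 for Col1a2, -0.0944 to 0.266 for Col5a1 and -0.183 to 0.122 for Col6a1. TMM scaling in experiment B split all called genes 151 higher and 67 lower, in place of 115 and 113. The causes were not tested.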
